A study of Mus musculus with 18 samples.

Results

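The 48 genes described here code for the machinery of cell division: cyclins and kinases of mitosis, the chromosomal passenger complex, kinetochore and spindle checkpoint proteins, the proteins that start anaphase, spindle motors, condensin, and proteins of the spindle midzone and cytokinesis. They were chosen by name, from textbook roles, but with earlier results of these data known. Each had 1 row among the 36451 genes of the deposited mouse colon table. Their transcript levels were compared over 18 RNA-seq libraries in 3 groups of 6. The Control mice were untreated male C57BL/6J mice, 6 weeks old, an inbred strain kept here free of specific pathogens. Strain and sex are stated only there and are taken to hold for all groups. The Model mice drank dextran sulfate sodium (DSS, a detergent-like polymer that injures the colon lining) at 3% for 1 week and received phosphate-buffered saline by gavage. The AKK mice received 0.1 mL of the gut bacterium Akkermansia muciniphila by gavage, 1 time a week for 6 weeks. Whether the AKK mice also drank DSS is not stated in the sources used here, and neither is the age of the Model or AKK mice. Nothing there ties 1 library to 1 animal, and the p-values below therefore reflect library-to-library spread, which may be technical. The study set out to ask whether this bacterium affects colitis through ferroptosis, an iron-dependent form of cell death.

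In the colon, division takes place mainly in the crypts, where stem cells and transit-amplifying cells replace an epithelium that is shed continually, and immune and stromal cells divide as well. Most mitotic transcripts are made in late S phase and G2 and are absent or low in resting cells, so whole-tissue levels depend on how many cells divide. Their promoters are known for a short element, the cell cycle genes homology region, which the DREAM and MuvB complexes bind, often close to CCAAT boxes bound by the factor NF-Y. In bulk tissue, fewer dividing cells and less mitotic RNA per dividing cell cannot be told apart.

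Of the 48 genes, 41 had a promoter of 300 bases, from 250 before to 50 after the transcript start, in the RefSeq table for the build GRCm38.p6. Incenp, Foxm1, Aurkb, Kif20a, Tpx2, Smc4 and Ccna2 were not matched. The letters of the homology region (TTTGAA, or else the palindrome TTCGAA), searched on both strands, occurred in 32 of the 41 promoters (78.0%) and in 6316 of all 32851 promoters (19.2%). CCAAT, on either strand, occurred in 30 of the 41 (73.2%) and in 12289 of all (37.4%). Both elements occurred together in 28 of the 41 (68.3%) and in 2472 of all (7.52%). The letters of E2F sites (GCGGGAA, or else the variant GCGCGAA), searched on both strands, occurred in 3 of the 41 (7.32%) and in 1972 of all (6.0%), nearly the same share. The 5 promoters shown hold both the homology region and CCAAT, and belong to 5 genes described below with small p-values in Model against Control. Cdk1, added to the description later, also holds both and has a smaller p than Mki67, and its promoter is not shown. The capitals mark the letters of both elements, on either strand. All 5 genes lie on the minus strand, and the sequences read 5′ to 3′ on the strand of the gene: Ncapd2 at chr6:125191537-125191836, Top2a at chr11:99024140-99024439, Ccnb2 at chr9:70421505-70421804, Cdc20 at chr4:118437294-118437593 and Mki67 at chr7:135716330-135716629.
Ncapd2: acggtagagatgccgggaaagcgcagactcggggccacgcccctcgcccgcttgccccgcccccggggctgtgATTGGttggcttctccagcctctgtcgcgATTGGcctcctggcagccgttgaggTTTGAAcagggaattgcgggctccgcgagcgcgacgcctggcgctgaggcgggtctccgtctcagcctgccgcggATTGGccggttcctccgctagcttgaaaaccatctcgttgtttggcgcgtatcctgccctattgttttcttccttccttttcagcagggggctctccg
Top2a: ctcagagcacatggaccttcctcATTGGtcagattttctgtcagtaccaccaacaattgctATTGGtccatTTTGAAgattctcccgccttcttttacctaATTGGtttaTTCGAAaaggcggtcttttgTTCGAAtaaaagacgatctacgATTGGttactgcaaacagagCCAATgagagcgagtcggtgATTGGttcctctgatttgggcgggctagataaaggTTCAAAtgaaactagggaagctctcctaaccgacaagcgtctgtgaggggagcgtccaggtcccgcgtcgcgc
Ccnb2: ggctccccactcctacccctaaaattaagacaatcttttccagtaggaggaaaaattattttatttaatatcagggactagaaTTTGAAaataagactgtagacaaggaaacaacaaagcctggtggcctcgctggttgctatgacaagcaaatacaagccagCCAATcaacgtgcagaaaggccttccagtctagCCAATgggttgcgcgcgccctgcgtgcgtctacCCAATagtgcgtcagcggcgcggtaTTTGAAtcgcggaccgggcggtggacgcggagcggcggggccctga
Cdc20: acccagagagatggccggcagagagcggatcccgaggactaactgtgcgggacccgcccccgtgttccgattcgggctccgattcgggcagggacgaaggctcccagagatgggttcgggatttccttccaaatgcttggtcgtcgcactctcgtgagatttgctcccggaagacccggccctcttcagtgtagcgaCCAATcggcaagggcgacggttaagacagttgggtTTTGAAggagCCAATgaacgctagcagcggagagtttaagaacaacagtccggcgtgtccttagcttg
Mki67: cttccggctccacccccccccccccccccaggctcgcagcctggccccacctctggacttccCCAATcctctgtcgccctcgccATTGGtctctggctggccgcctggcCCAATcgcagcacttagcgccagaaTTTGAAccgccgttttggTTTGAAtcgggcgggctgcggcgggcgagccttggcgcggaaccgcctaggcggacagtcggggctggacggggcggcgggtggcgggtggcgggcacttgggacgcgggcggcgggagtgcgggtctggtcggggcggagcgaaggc

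A match of letters is a description and no proof of a bound site. The plot of element positions shows where the matches lay in the promoters that hold them. The homology region letters lay within 50 bases on either side of the transcript start in 29 of the 41 (70.7%) and in 1743 of all promoters (5.31%). CCAAT lay within the 100 bases before the start in 26 of the 41 (63.4%) and in 6338 of all (19.3%). Of the promoters shown, those of Ncapd2 and Mki67 have their homology region letters farther before the RefSeq start. For Ncapd2 the letters begin at -123, but this start lies 115 bases after the gene start of the deposited table. The distance therefore depends on the start used. For Mki67 the starts lie 18 bases apart. These windows were chosen after the positions had been seen. Neither element was found in the promoters of Birc5, Mad2l1, Mybl2, Ncaph, Nuf2, Nusap1 and Pttg1, which says only that these letters are not there. Of these genes all but Pttg1 were called lower in Model against Control, as described below.

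**Figure D1:**
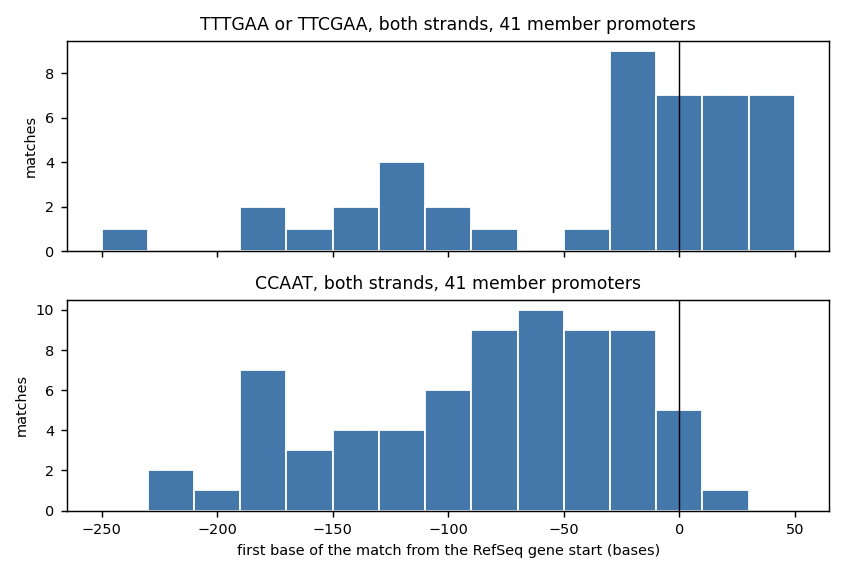
Positions of the homology region letters and of CCAAT in the 41 promoters found for the 48 genes, in bins of 20 bases. The x axis is the distance from the RefSeq transcript start in bases and the y axis counts matches. In 29 promoters the homology region letters lie within 50 bases of the start, and in 26 CCAAT lies in the 100 bases before it.

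The libraries held 53873744 to 82589848 estimated counts each. All of the 48 genes passed the filter on low values, which asked for 6 libraries with an FPKM of 1 or more. No gene of the 48 had fewer than 344 counts in any library. As these counts are estimates and not tallies of reads, no counting error was computed from them. The colon label was checked against 10 colonocyte and 10 goblet cell markers. Their summed FPKM was at least 1909 for colonocytes and 3040 for goblet cells in every library but Model_1337, which had 307 and 339 and so went against its label. Model_1337 also stood apart in squamous epithelium markers, which summed to an FPKM of 6345 against 0.91 to 2.6 in the other libraries, and in epithelial markers at 1302.8 against 4085 to 7972. Model_1341 had 17.0% of its counts on mitochondrial genes against 3.93 to 8.59% in the others.

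Among the Control libraries, 3 stood apart in these genes, and each comparison with Control is given below with and without them. Control_2286, Control_2288 and Control_2289 were the 3 highest of all 18 libraries for 44 of the 48 genes by FPKM (91.7%), against 661 of the 14007 genes tested (4.72%). On counts scaled by TMM (trimmed mean of M values) they were the 3 highest for 47 of 48 (97.9%), with Pttg1 the exception, against 937 of all genes (6.69%). The median deviation of the 48 genes from their mean over all libraries, in log2 counts scaled to library size, was 0.86 in Control_2286, 0.64 in Control_2288 and 0.71 in Control_2289. It was 0.04, 0.07 and -0.02 in Control_2285, Control_2287 and Control_2668. The Model libraries ran from -0.43 (Model_1340) to -0.01 (Model_1338) and the AKK libraries from -0.30 (AKK_1309) to 0.02 (AKK_1306). The other 3 Control libraries therefore lay close to the treated groups. For 43 of the 48 genes at least 1 of these 3 lay within the range of the Model libraries, although for 31 genes all 3 lay above the Model median. The labels give no batch, age or other feature that sets the 3 high Control libraries apart. Control_2286, Control_2288 and Control_2289 had 6.01, 6.35 and 5.89% of their counts on mitochondrial genes. Control_2285, Control_2287 and Control_2668 had 7.72, 7.34 and 8.59%, and the AKK libraries 5.70 to 7.04%. A link between this share and the 48 genes was not tested.

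**Figure D2:**
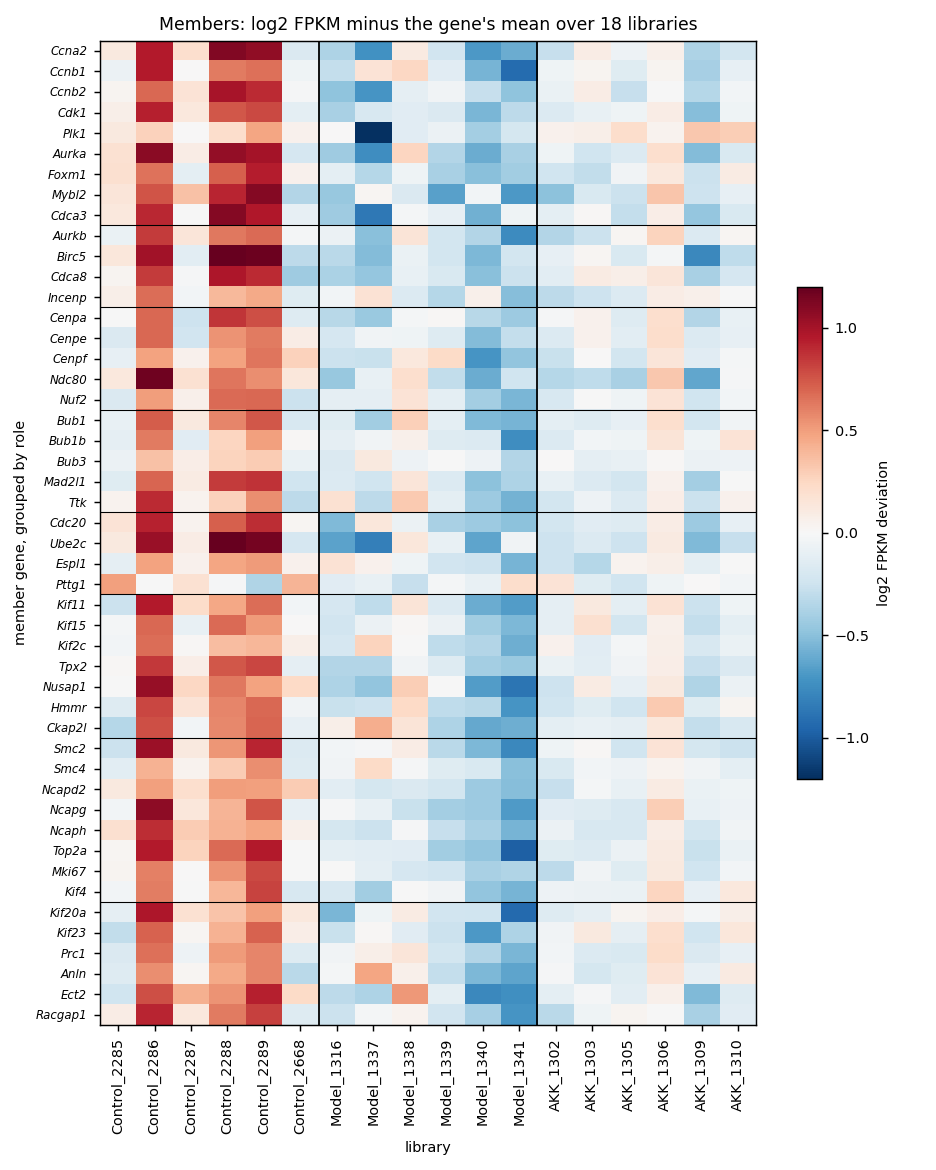
Level of each of the 48 genes (rows, grouped by role) in each of the 18 libraries (columns), as log2 FPKM minus the gene's mean over all libraries (red high, blue low). Control_2286, Control_2288 and Control_2289 are high in nearly every row, and on this scale Pttg1, Plk1, Anln and Ttk are the rows where they are not the 3 highest.

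The spread of the 48 genes within groups followed the same libraries. The median coefficient of variation was 28.5% among Control libraries, 17.9% among Model libraries and 11.3% among AKK libraries. Over all genes tested it was 17.9%, 23.1% and 11.1%. Levels in Control, in FPKM, which is per length of transcript, were highest for Ccna2 (mean 27.9), Plk1 (27.7), Ccnb2 (26.4), Ube2c (25.7) and Cdc20 (22.3), and lowest for Ndc80 (1.66) and Kif15 (1.54). The order among the first 4 is within their spread, since the SD of Ccna2 was 10.3 and that of Ube2c 10.8 (n = 6).

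Between Model and Control mice, which differ in DSS, in saline gavage and perhaps in age, the mitosis genes were lower in Model nearly throughout. By edgeR's quasi-likelihood test with Benjamini-Hochberg adjustment over all 14007 genes, 44 of the 48 fell at an adjusted p under 0.05 and 0 rose. The share called lower over all genes tested was 7.67%, and the share called higher 12.4%. Ttk, Pttg1, Ckap2l and Anln did not pass. All 48 log2 changes were negative, from -1.06 to -0.23, with a median of -0.68, while the median over all genes tested was -0.00. In 5 genes, Ccnb2, Cdk1, Ncapd2, Ncaph and Top2a, every Model library lay below every Control library by FPKM, against 1.37% of all genes tested. The reverse held for 0 genes, against 1.53%. The 44 calls ranged from 33 to 46 when single libraries were left out, with 4.61 to 10.5% of all genes tested called lower. Without Control_2286, Control_2288 and Control_2289 together, libraries picked for these very values, 3 genes remained called (Ncapd2, Ncaph and Top2a), 16 had an unadjusted p under 0.05 and the median was -0.29, with 0.493% of all genes tested called lower.

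AKK and Control mice differ in the bacterium, in gavage and perhaps in DSS and age. The AKK against Control comparison gave the same sign with fewer calls. There 22 of the 48 fell and 0 rose, with 2.48% of all genes tested called lower and 3.72% higher. All 48 log2 changes were again negative, with a median of -0.56. Ncapd2 alone separated the groups, with every AKK library below every Control library (1.01% of all genes tested did so). The count of 22 moved with single libraries, and so did the share of all genes tested called lower, given in brackets. It fell to 4 without Control_2286 (0.621%), to 4 without Control_2288 (0.714%) and to 7 without Control_2289 (1.54%). It was 36 without Control_2285 (2.68%), 31 without Control_2287 (2.86%) and 41 without Control_2668 (6.03%). Among AKK libraries it fell to 4 without AKK_1302 (0.778%), 16 without AKK_1303 (1.86%) and 10 without AKK_1305 (1.16%). It fell to 11 without AKK_1306 (0.728%), 4 without AKK_1309 (0.635%) and 6 without AKK_1310 (0.721%). Over all single libraries left out, the share of all genes tested called lower ran from 0.621 to 7.21%. The highest share came without Model_1337, where 33 of the 48 were called lower. With the 3 high Control libraries left out together it was 0, with 7 genes at an unadjusted p under 0.05, a median of -0.17 and 0.1% of all genes tested called lower.

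The AKK and Model mice differ in the bacterium and, if the AKK mice drank none, in DSS as well. They perhaps also differ in age and gavage schedule. Between these groups 0 of the 48 were called by edgeR, DESeq2 or limma. By edgeR the share called over all genes tested was 0 lower and 0.0214% higher (3 genes). DESeq2 called 10 of all genes tested higher and 2 lower. The median log2 change was 0.09, with 40 genes positive and 8 negative, and only Plk1 had an unadjusted p under 0.05. Both comparisons with Control use the same 6 Control libraries, so their values are given side by side and not as separate evidence.

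**Figure D3:**
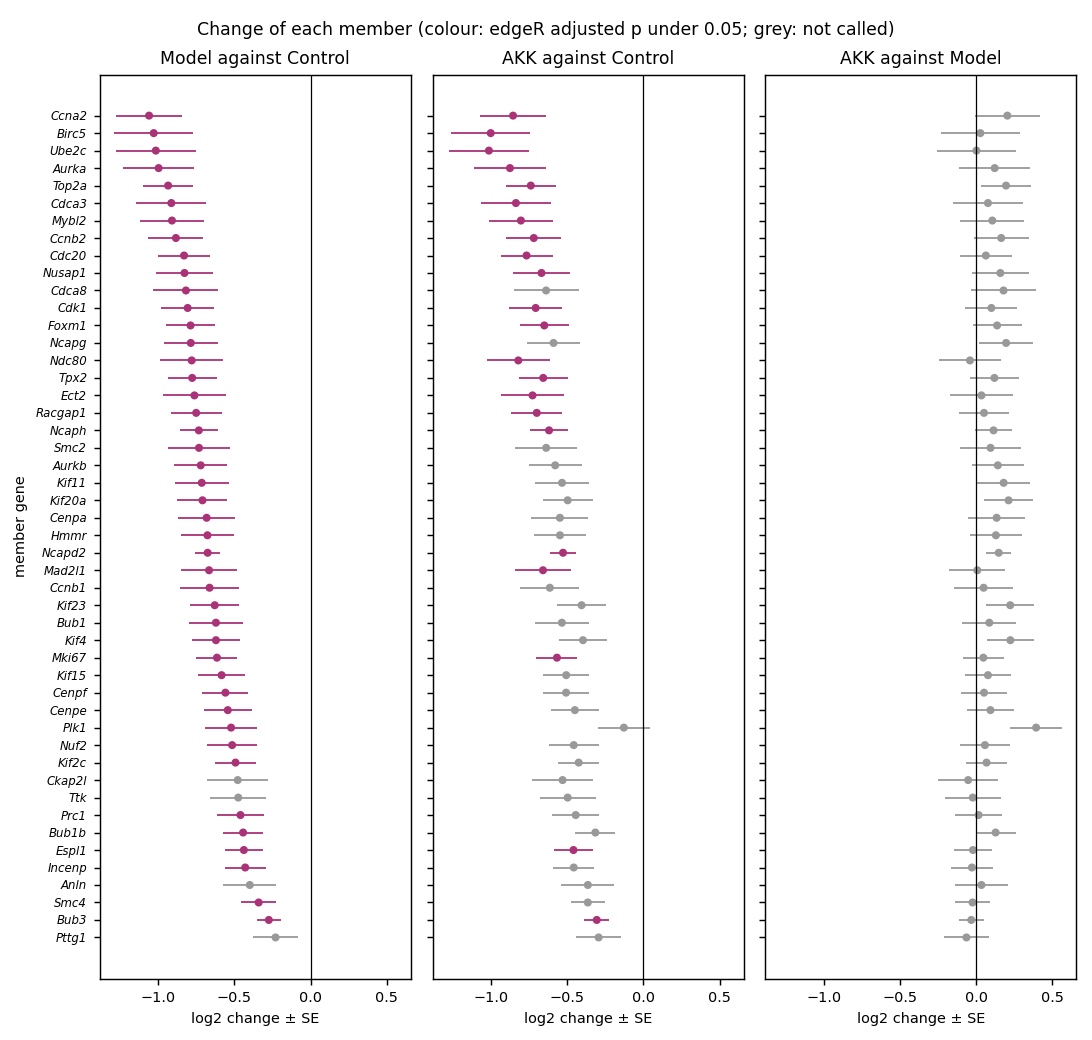
Log2 change of each of the 48 genes with its standard error in Model against Control, AKK against Model and AKK against Control, by edgeR, in order of the change in Model against Control. Coloured points passed an adjusted p of 0.05 and grey points did not. All points of both comparisons with Control lie below 0, and those of AKK against Model lie around 0.

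The mitotic cyclins, kinases and transcription factors were the role group with the lowest median, with 9 of 9 called lower in Model against Control (median -0.88) and 7 of 9 in AKK against Control (median -0.72). Ccna2, ENSMUSG00000027715 on the minus strand of chr3:36564865-36572150, codes for cyclin A2, which drives S phase and the entry into mitosis. Its FPKM in Control_2285, Control_2286, Control_2287, Control_2288, Control_2289 and Control_2668 was 19.6, 34.7, 20.7, 38.9, 37.7 and 15.96. In Model the lowest, median and highest were 10.9, 12.9 and 19.4, and in AKK 14.0, 16.4 and 19.2. The 3 high Control libraries lay far above the rest, while Control_2668 fell inside the range of both other groups. Ccna2 fell by 1.06 ± 0.22 (SE) on the log2 scale in Model against Control (adjusted p = 0.0052, edgeR), and by 0.85 ± 0.21 in AKK against Control (adjusted p = 0.0293).

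Ccnb2, for cyclin B2, a partner of Cdk1, ran from 18.2 to 36.6 in Control (median 25.2), 11.3 to 17.9 in Model (median 14.2) and 14.6 to 19.6 in AKK (median 17.7). Its Model libraries were all below its Control libraries, and AKK and Control overlapped. It fell by 0.88 ± 0.18 in Model against Control (adjusted p = 0.00524, edgeR). Cdk1 itself, the kinase that sets off mitosis, fell by 0.81 ± 0.17 (adjusted p = 0.00636), also without overlap by FPKM. Foxm1, a transcription factor for G2 and mitosis genes, ran from 3.1 to 6.44 in Control (median 4.56), 2.38 to 3.24 in Model (median 2.61) and 2.74 to 3.67 in AKK (median 3.05). Only the lowest Control library reached the Model range. Foxm1 fell by 0.79 ± 0.16 (adjusted p = 0.00532). Mybl2, a partner of the MuvB complex, ran from 1.79 to 4.88 in Control (median 3.38), 1.42 to 2.32 in Model (median 1.84) and 1.62 to 2.88 in AKK (median 1.96). The 3 groups overlapped at their low ends, and Mybl2 fell by 0.91 ± 0.21 (adjusted p = 0.00903).

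Plk1, ENSMUSG00000030867 on the plus strand of chr7:122159439-122169873, codes for polo-like kinase 1, which acts from mitotic entry to cytokinesis, and its pattern differed. Control ran from 24.1 to 33.5 (median 27.1), Model from 9.79 to 24.2 (median 21.4) and AKK from 24.9 to 30.2 (median 26.6). AKK lay within the Control range. By FPKM every AKK library lay above every Model library, as in 0.735% of all genes tested. The reverse held for 0 of the 48 (0.0643% of all genes). The lowest value belonged to Model_1337 and the other 5 Model libraries reached 18.1 to 24.2. FPKM is not scaled by TMM, and Model_1341 had the lowest TMM factor of all libraries (0.847). On TMM-scaled counts, which edgeR used, Model_1341 lay above AKK_1306 for Plk1, so there the groups overlapped. Plk1 fell by 0.52 ± 0.17 in Model against Control (adjusted p = 0.0408, edgeR). That call was lost on leaving out Control_2285, Control_2286, Control_2288, Control_2289, Model_1340, AKK_1302, AKK_1305 or AKK_1310, with adjusted p from 0.0502 to 0.0825. In AKK against Model its log2 difference of 0.39 ± 0.17 had an unadjusted p of 0.035 and an adjusted p of 0.727. Without Model_1337 these were -0.37 (adjusted p = 0.0174) in Model against Control and 0.25 (adjusted p = 0.839) in AKK against Model.

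**Figure D4:**
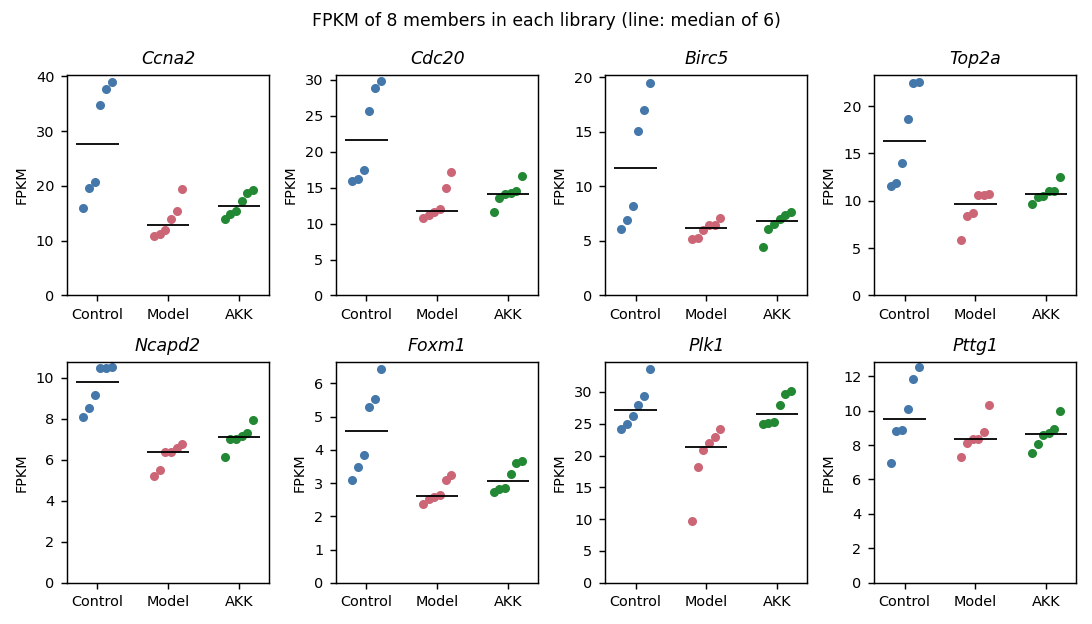
FPKM of Ccna2, Cdc20, Birc5, Top2a, Ncapd2, Foxm1, Plk1 and Pttg1 in each library of the 3 groups, with a line at the group median (n = 6 each). The Control points of most genes split into 3 high and 3 low libraries. Ncapd2 separates Control from both other groups, Plk1 separates Model from AKK on this FPKM scale only, and Pttg1 does neither.

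All 4 genes of the chromosomal passenger complex, which corrects faulty attachments of chromosomes to the spindle, fell in Model against Control (median -0.77), and 1 of 4, Birc5, fell in AKK against Control. Birc5, for survivin, ran from 6.04 to 19.5 in Control (median 11.6), 5.16 to 7.11 in Model (median 6.22) and 4.4 to 7.61 in AKK (median 6.79). Its Control libraries spanned a wide range whose low end met both other groups. Birc5 fell by 1.03 ± 0.26 in Model against Control (adjusted p = 0.0132, edgeR) and was 0.5 of the Control level in the fit of AKK against Control (adjusted p = 0.0326). Aurkb, the kinase of the complex, ran from 6.39 to 12.1 in Control (median 8.96), 4.0 to 7.52 in Model (median 5.53) and 5.29 to 8.09 in AKK (median 6.43). Control_2285, Control_2287 and Control_2668 lay within the Model range. It fell by 0.72 ± 0.17 in Model against Control (adjusted p = 0.0106) and had an adjusted p of 0.0544 in AKK against Control.

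At the centromere and kinetochore, where chromosomes meet spindle microtubules, 5 of 5 genes fell in Model against Control (median -0.56) and 1 of 5, Ndc80, in AKK against Control (median -0.51). Ndc80, a microtubule-binding subunit of the outer kinetochore, ran from 1.26 to 2.6 in Control (median 1.51), 0.764 to 1.33 in Model (median 0.959) and 0.75 to 1.45 in AKK (median 0.923). Control_2285, Control_2287 and Control_2668 lay within the ranges of both other groups. Ndc80 fell by 0.78 ± 0.21 in Model against Control (adjusted p = 0.0161, edgeR) and by 0.82 ± 0.21 in AKK against Control (adjusted p = 0.0294). Cenpf, a large kinetochore protein, ran from 1.45 to 2.41 in Control (median 2.03), 0.952 to 1.81 in Model (median 1.3) and 1.29 to 1.72 in AKK (median 1.47). Control_2285 and Control_2287 lay within the Model range. It fell by 0.56 ± 0.15 in Model against Control (adjusted p = 0.0174).

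The spindle checkpoint, which holds anaphase until all chromosomes are attached, had 4 of 5 genes called lower in Model against Control (median -0.47) and 2 of 5 in AKK against Control (median -0.50). Bub1, a checkpoint kinase, ran from 2.6 to 4.97 in Control (median 3.83), 2.02 to 3.61 in Model (median 2.46) and 2.55 to 3.41 in AKK (median 2.75). It fell by 0.62 ± 0.18 in Model against Control (adjusted p = 0.0231, edgeR), a call lost without Control_2286 (0.0553) or Control_2289 (0.0511). Mad2l1, for the inhibitor of Cdc20 named MAD2, ran from 2.87 to 6.17 in Control (median 4.57), 2.41 to 3.76 in Model (median 2.94) and 2.56 to 3.51 in AKK (median 3.11). For both genes Control_2285, Control_2287 and Control_2668 lay within the Model range. Mad2l1 fell by 0.67 ± 0.18 in Model (adjusted p = 0.0196) and by 0.66 ± 0.18 in AKK (adjusted p = 0.042), both against Control. Bub3, which recruits checkpoint proteins to kinetochores, had one of the smaller changes that passed, -0.27 ± 0.08 (adjusted p = 0.0264). Ttk, the kinase known as MPS1, ran from 1.46 to 3.37 in Control (median 2.04), 1.23 to 2.26 in Model (median 1.56) and 1.52 to 1.92 in AKK (median 1.68). Its log2 change of -0.47 ± 0.18 had an adjusted p of 0.0768, which became 0.0247 without Control_2668 and 0.0322 without Model_1338.

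Of the 4 genes of anaphase onset, 3 fell in both comparisons with Control. Cdc20, the activator of the anaphase-promoting complex, ran from 15.9 to 29.8 in Control (median 21.6), 10.8 to 17.2 in Model (median 11.8) and 11.6 to 16.6 in AKK (median 14.2). It fell by 0.83 ± 0.17 in Model (adjusted p = 0.00529, edgeR) and by 0.77 ± 0.17 in AKK (adjusted p = 0.0178), both against Control. Ube2c, the ubiquitin-conjugating enzyme of the same complex, ran from 13.9 to 38.4 in Control (median 24.9), 9.0 to 17.5 in Model (median 12.6) and 10.98 to 17.2 in AKK (median 13.3). For both genes Control_2287 and Control_2668 lay within the ranges of Model and AKK. Ube2c fell by 1.01 ± 0.26 in Model against Control (adjusted p = 0.0141) and by 1.01 ± 0.26 in AKK against Control (adjusted p = 0.0317).

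Pttg1, ENSMUSG00000020415 on the minus strand of chr11:43420250-43426251, codes for securin, the inhibitor of separase, and was the member that departed most from the others. Its FPKM was 12.6 in Control_2285, 8.89 in Control_2286, 10.1 in Control_2287, 8.82 in Control_2288, 6.95 in Control_2289 and 11.8 in Control_2668. Model ran from 7.33 to 10.3 (median 8.36) and AKK from 7.53 to 9.96 (median 8.64). The Control libraries that were highest for the other genes were the 3 lowest Control libraries for Pttg1, and all groups overlapped. Its log2 change of -0.23 ± 0.15 in Model against Control had an adjusted p of 0.27 by edgeR, and that of -0.29 ± 0.15 in AKK against Control one of 0.219.

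Of the 7 spindle motors and microtubule proteins, 6 fell in Model against Control (median -0.68) and 2 in AKK against Control (median -0.53). Tpx2, the activator of Aurora A on spindle microtubules, ran from 5.89 to 11.4 in Control (median 8.63), 4.65 to 6.13 in Model (median 4.96) and 5.22 to 6.68 in AKK (median 5.89). Control_2668 lay within the Model range. It fell by 0.78 ± 0.16 in Model against Control (adjusted p = 0.00548, edgeR). Nusap1, a microtubule-bundling protein, ran from 5.78 to 11.9 in Control (median 7.49), 3.16 to 7.12 in Model (median 4.33) and 4.52 to 6.29 in AKK (median 5.47). Its groups overlapped, and it fell by 0.83 ± 0.19 (adjusted p = 0.00865). Ckap2l, a spindle protein needed for microtubule organisation, ran from 4.78 to 10.3 in Control (median 7.47), 3.97 to 8.21 in Model (median 5.52) and 4.97 to 6.65 in AKK (median 5.62). Its log2 change of -0.48 ± 0.20 had an adjusted p of 0.0965, became 0.0396 without Control_2285, and turned to 0.0048 on the log2 scale without the 3 high Control libraries together.

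Chromosome structure held the genes that stood most clearly apart from Control. Of these 8 genes, 8 fell in Model (median -0.70) and 4 in AKK (median -0.58). Ncapd2, ENSMUSG00000038252 on the minus strand of chr6:125168007-125191701, codes for a subunit of condensin I, which compacts chromosomes for mitosis. Its FPKM was 8.08, 10.5, 8.54, 10.5, 10.5 and 9.15 in Control_2285, Control_2286, Control_2287, Control_2288, Control_2289 and Control_2668. In Model it was 6.79, 6.40, 6.58, 6.38, 5.51 and 5.21 in Model_1316, Model_1337, Model_1338, Model_1339, Model_1340 and Model_1341. In AKK it was 6.15, 7.32, 7.00, 7.93, 7.02 and 7.17 in AKK_1302, AKK_1303, AKK_1305, AKK_1306, AKK_1309 and AKK_1310. Every Control library lay above every library of both other groups, while Model and AKK overlapped. Ncapd2 fell by 0.67 ± 0.08 in Model against Control (adjusted p = 0.000531, edgeR) and by 0.53 ± 0.08 in AKK against Control (adjusted p = 0.00264), and the AKK against Model difference of 0.15 ± 0.08 had an adjusted p of 0.743.

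Ncaph, another condensin I subunit, ran from 4.1 to 7.27 in Control (median 5.05), 2.67 to 3.9 in Model (median 3.27) and 3.37 to 4.17 in AKK (median 3.59). It separated Model from Control, while the highest AKK library passed the lowest Control library. Ncaph fell by 0.73 ± 0.12 in Model (adjusted p = 0.00211, edgeR) and by 0.62 ± 0.12 in AKK (adjusted p = 0.0104), both against Control. Top2a, for topoisomerase II alpha, which untangles sister chromatids, ran from 11.6 to 22.5 in Control (median 16.3), 5.91 to 10.7 in Model (median 9.65) and 9.66 to 12.5 in AKK (median 10.8). Model and Control did not overlap, and AKK reached into the low end of Control. Top2a fell by 0.93 ± 0.16 in Model (adjusted p = 0.00266) and by 0.74 ± 0.16 in AKK (adjusted p = 0.018), both against Control. Mki67, for the proliferation marker Ki-67 that coats mitotic chromosomes, ran from 13.2 to 22.9 in Control (median 16.4), 10.1 to 13.3 in Model (median 11.4) and 10.7 to 14.4 in AKK (median 12.5). The Control and Model ranges touched only at their edge. Mki67 fell by 0.61 ± 0.13 in Model (adjusted p = 0.00716) and by 0.57 ± 0.13 in AKK (adjusted p = 0.0235), both against Control. The second call was lost without Control_2286, Control_2288, AKK_1302 or AKK_1309, with adjusted p from 0.0567 to 0.0612. Kif4, a motor that binds chromosome arms, ran from 3.06 to 6.15 in Control (median 4.06), 2.39 to 3.49 in Model (median 2.85) and 3.28 to 4.21 in AKK (median 3.35), and fell by 0.62 ± 0.16 in Model against Control (adjusted p = 0.013).

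At the spindle midzone and in cytokinesis, 5 of 6 genes fell in Model against Control (median -0.67) and 2 of 6 in AKK against Control (median -0.47). Kif20a, a motor of the central spindle, ran from 4.15 to 8.77 in Control (median 5.39), 2.35 to 4.81 in Model (median 3.81) and 4.02 to 4.74 in AKK (median 4.5). It fell by 0.71 ± 0.16 in Model against Control (adjusted p = 0.00903, edgeR). Racgap1, which with the motor Kif23 forms centralspindlin, ran from 4.51 to 9.47 in Control (median 6.62), 3.08 to 5.18 in Model (median 4.25) and 3.84 to 5.12 in AKK (median 4.72). Both genes overlapped between groups at the low end of Control. Racgap1 fell by 0.75 ± 0.17 in Model (adjusted p = 0.00754) and by 0.70 ± 0.17 in AKK (adjusted p = 0.0242), both against Control. Anln, for anillin, a scaffold of the cleavage furrow, ran from 1.84 to 3.46 in Control (median 2.75), 1.48 to 3.19 in Model (median 2.08) and 1.98 to 2.57 in AKK (median 2.22). Its highest Model value came from Model_1337. The log2 change of -0.40 ± 0.17 had an adjusted p of 0.111, which became 0.0408 without Model_1337 and 0.0349 without Control_2668.

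Genes of the same cycle outside the 48 were set beside them in lists taken from textbook roles, also with earlier results of these data known. Of 71 other mitosis genes tested, 35 fell and 0 rose in Model against Control (median -0.50), and 19 fell in AKK against Control. Among these were Kifc1, a minus-end spindle motor, at -0.81 ± 0.12 (adjusted p = 0.000892, edgeR), and Melk, a mitotic kinase, at -1.19 ± 0.19 (adjusted p = 0.00182), both in Model against Control. Of 52 DNA replication genes tested, 35 fell and 0 rose in Model (median -0.54), and 14 fell in AKK. Lig1, the ligase that joins Okazaki fragments, changed by -0.80 ± 0.10 (adjusted p = 0.000531). The shares called in these lists were above the 7.67% of all genes tested that fell.

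Lists of regulators had counts to be read against the 7.67% of all genes tested that fell and the 12.4% that rose. Of 14 genes of G1 cyclins, kinases and growth, Ccnd1, a D-type cyclin of G1, fell in Model (log2 change -0.82, adjusted p = 0.0166, edgeR) while Ccnd2, another D-type cyclin, rose (0.53, adjusted p = 0.0218). Of 18 cell cycle inhibitors 2 fell, Pkmyt1 (-0.56, adjusted p = 0.00266), which holds Cdk1 inactive, and Cdkn1a (-0.55, adjusted p = 0.0303), for the inhibitor p21, and 1 rose, Btg1 (0.40, adjusted p = 0.0346), an antiproliferative gene. Of 11 DREAM and MuvB genes 3 fell, among them Rbl1 (-0.43, adjusted p = 0.00392), a pocket protein of DREAM. Of 15 core subunits and activators of the anaphase-promoting complex other than Cdc20, 1 fell, the activator Fzr1 (-0.41, adjusted p = 0.0105), a share near that of all genes, as with the G1 genes. Of 13 cohesin genes 3 fell and 1 rose, and Rad21, the subunit that separase cuts, was at -0.43 (adjusted p = 0.00546). In AKK against Model 0 genes of any of these lists were called by edgeR.

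The 3 high Control libraries were also the 3 highest of all 18 by FPKM for 41 of the 71 other mitosis genes and 21 of the 52 replication genes. They were so for 0 of 18 inhibitors, 0 of 15 genes of the anaphase-promoting complex, 1 of 14 G1 genes, 1 of 11 DREAM and MuvB genes and 1 of 13 cohesin genes (the plot of lists by library), against 4.72% of all genes tested. On TMM-scaled counts the numbers were 47 of 71 and 26 of 52, then 1 of 18 inhibitors, 1 of 15 genes of the anaphase-promoting complex and 2 of 14 G1 genes. There they reached 4 of 11 DREAM and MuvB genes (36.4%) and 4 of 13 cohesin genes (30.8%), against 6.69% of all genes tested.

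**Figure D5:**
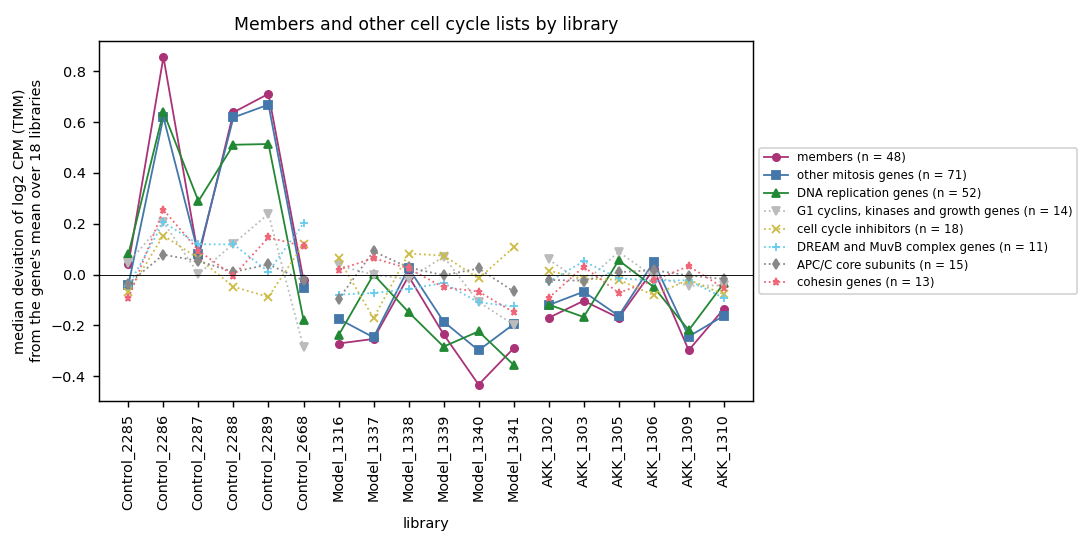
Median level of the 48 genes and of the other cell cycle lists in each of the 18 libraries, as the difference from each gene's mean over all libraries in log2 counts scaled to library size. Control_2286, Control_2288 and Control_2289 stand above the other libraries for the 48 genes, the other mitosis genes and the replication genes. They do so by less for the G1 genes. In the inhibitor, DREAM and MuvB, anaphase-promoting complex and cohesin lists they do not all stand above the rest.

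Markers of other cell types moved with the same groups, and their part in the changes of the 48 genes was not tested except as given here. The summed FPKM of 15 epithelial markers was 5598 to 7972 in Control (median 5756), 1302.8 to 5714 in Model (median 5056) and 4582 to 5375 in AKK (median 5069). In Model against Control 0 of the 15 were called by edgeR. There 5 had an unadjusted p under 0.05, against 4934 of the 14007 genes tested. All 15 log2 changes were negative, with a median of -0.49. The 10 smooth muscle markers summed to 744 to 2628 in Control (median 1250), 1453 to 3999 in Model (median 2437) and 1509 to 2293 in AKK (median 1876). By library the smooth muscle sum was 2628 in Control_2285, 744 in Control_2286, 1057 in Control_2287, 1056 in Control_2288, 1444 in Control_2289 and 1479 in Control_2668. Control_2286 was the lowest of all 18 libraries in this sum, Control_2288 came next, then Control_2287 and Control_2289. Of these 10 markers 4 rose in Model against Control and 0 in AKK against Control, against 12.4% and 3.72% of all genes tested.

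In Model against Control, 7 of 8 fibroblast, 8 of 8 endothelial, 6 of 6 B cell, 7 of 10 plasma cell and 5 of 10 macrophage markers tested rose. In AKK against Control the counts were 6, 5, 4, 5 and 0. Over all genes tested 12.4% rose in Model against Control and 3.72% in AKK against Control. With the summed epithelial markers as a covariate, 16 of the 48 genes were called lower in Model against Control and the median log2 change was -0.65, with 2.76% of all genes tested called lower. With the summed smooth muscle markers as a covariate, 1 was called (Ncapd2) and the median was -0.41, with 0.157% of all genes tested called lower. Of 12 crypt stem and progenitor markers tested, 2 rose and 0 fell in Model against Control. The share that rose was near the 12.4% of all genes tested, and 7.67% of all genes fell.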

How the data were processed

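Colon RNA was sequenced as poly-A selected, strand-marked paired-end libraries, per the labels' protocols. The deposited table gives FPKM values and estimated counts per gene in each of the 18 libraries, made by the authors with cutadapt 1.9, HISAT2 2.2.1, StringTie 2.1.6 and the build mm10, per the submitters' processing notes. Not given in the sources used here are tool roles, annotation release and strand setting. The estimated (expected) counts, whole numbers as deposited, kept a constant ratio to FPKM in 99.8% of the values of 12794 well-counted genes (ratios within 1%), and held 2.36 times as many values of 4 as of the neighbouring counts, so they were treated as estimated and not as read tallies.

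The 14007 genes that reached an FPKM of 1 in 6 or more libraries entered 1 quasi-likelihood model over all 18 libraries (edgeR 4.0.16, TMM scaling, R 4.3.3), and p-values were adjusted by Benjamini-Hochberg over all of them. Genes called had an adjusted p under 0.05, and the SE came from the F statistic. DESeq2 1.42.0, limma 3.58.1, other scalings, filters and covariates and each library left out were tried as alternatives. Levels are given in FPKM as ranges and medians, and limma used log2(FPKM + 1). The members and lists were chosen with earlier results of these data known. Genes described with values were, per role group, the 2 of smallest p in Model against Control, then Foxm1, Mybl2 and Mki67, the members of highest and lowest mean level, those not called in Model against Control, and the 5 of smallest p in AKK against Control and 3 in AKK against Model. Cdk1, Bub3 and Btg1 were added after their values were seen. Promoters came from RefSeq, GRCm38.p6, which is mm10.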

Additional observations from a re-analysis of the deposited data

Results flagged for a closer look

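Of 144 sets of 6 libraries (48 genes in 3 groups), 4 held a library far from the other 5 by Dixon's criterion, and chance flags about 1 in 20 such groups. Aurka, a spindle pole kinase, had an FPKM of 8.19 in Model_1338, where the next highest Model library had 5.37. Bub1b, for the checkpoint protein BUBR1, had 3.35 in Model_1341, the lowest of the Model libraries, where the next had 4.99. By FPKM Model_1341 was the lowest of all 18 libraries for 27 of the 48 genes, and on TMM-scaled counts for 7. The criterion was applied to FPKM, and the Bub1b flag was not tested on TMM-scaled counts. Ncapg, a condensin I subunit, had 2.55 in AKK_1306 against a next highest of 2.00. Prc1, which bundles microtubules at the midzone, had 4.43 in AKK_1306 against a next highest of 3.71. Model_1337, the library with squamous markers, gave 0 of these 4. The criterion looks for 1 library far from the others and cannot find 3 high libraries of 6, such as those of Control.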

How the results depend on the processing

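Each count is followed in brackets by the share of all genes tested called lower, which moved as well. The count of 44 genes lower in Model against Control (7.67%) was 21 with an FPKM minimum of 5 (26 of the 48 tested, 7.17%). It was 17 with only the groups compared in the fit (1.76%). It was 16 with epithelial markers (2.76%) and 1 with smooth muscle markers (0.157%) as a covariate. Without the 3 high Control libraries together, which was chosen after seeing the data, it was 3 (0.493%). When single libraries were left out it was 33 to 46 (4.61 to 10.5%). The count of 22 lower in AKK against Control (2.48%) was 40 by DESeq2 (6.54%) and 10 on library totals alone (0.75%). With no filter on low values it was 4 (0.233%). By limma it was 3 and 3 with a pseudocount of 1 and 0.1 (0.6% and 0.564%). It was 1 with smooth muscle markers as a covariate (0.464%) and 0 without the libraries over 70000000 counts (0.0143%). Those libraries were AKK_1306, AKK_1309, AKK_1310 and Model_1341, so fewer AKK libraries entered that fit. The median log2 change of the 48 genes was then -0.59, against -0.56 in the main fit. Leaving out Model_1337 and Model_1341 gave 36 (9.12%). Leaving out Model_1340 and AKK_1309 together, also chosen after seeing the data, gave 4 (0.742%). Without the 3 high Control libraries it was 0 (0.1%). When single libraries were left out it was 4 to 41 (0.621 to 7.21%). AKK against Model gave 0 calls in every setting run. The causes of these shifts were not tested. Ckap2l in Model against Control reversed to 0.0048 without the 3 high Control libraries. On library totals alone 73.1% of all genes called in Model against Control were higher, against 61.8% in the main fit. No paired analysis was possible because the groups share no replicate numbers.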
